A study of Mus musculus with 6 samples.

Results

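The 10 genes described here encode the IkB proteins and the A20 group of ubiquitin-editing regulators, the products through which NF-kB signalling limits itself. They were chosen by symbol, as Nfkbia, Nfkbib, Nfkbie, Nfkbid, Nfkbiz, Bcl3, Tnfaip3, Tnip1, Tnip3 and Cyld, and all 10 were found with 1 row each among the 55401 genes of the deposited table. The study sequenced poly(A) RNA of BV2 cells, an immortalised mouse microglial line, in 3 libraries of cells given Vehicle and 3 libraries of cells given LPS, the bacterial lipopolysaccharide sensed by Tlr4. The labels name no mutation, no other agent, and no dose or duration of LPS, so the values describe a single unstated time of exposure in a single cell line. The design text gives the aim as finding regulators of microglial activation and inflammation. Nothing in the labels ties the libraries to independent cultures, and the p-values therefore reflect library-to-library spread, which may be technical.

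The deposited values are estimated counts, and library totals ran from 45969690 to 59023474. The lowest values came in steps of 3.66 to 3.83 in each library, so a value is not a number of reads. Of 10 microglia or macrophage markers, 9 had a mean above 1 CPM (counts scaled to library size by TMM), and the exception was P2ry12. Their summed level ran from 1899 to 2132 CPM with Vehicle and from 1395 to 1838 CPM with LPS. Summed levels of 4 neuron markers (1.66 to 10.2 CPM), 4 astrocyte markers (1.70 to 7.54 CPM), 4 oligodendrocyte markers (1.12 to 6.52 CPM) and 4 fibroblast markers (0.160 to 0.616 CPM) were low in all 6 libraries. The T cell markers Cd3e and Cd3g were at 0 in every library. The microglia or macrophage sums of the 2 groups did not overlap, and their part in the results that follow was not tested. In these bulk libraries, fewer cells of a kind and less RNA per cell cannot be told apart.

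In resting cells the classical IkB proteins (IkB alpha, beta and epsilon, from Nfkbia, Nfkbib and Nfkbie) hold Rel family dimers in the cytoplasm. When LPS engages its receptor, the IKK complex phosphorylates them, they are ubiquitinated and degraded, and the freed dimers switch on genes that include new IkB and A20. The nuclear or atypical IkB proteins (IkB zeta, Bcl-3 and IkBNS, from Nfkbiz, Bcl3 and Nfkbid) act on chromatin with Rel dimers and can raise or lower transcription. The ubiquitin-editing members act upstream: A20 (Tnfaip3) and CYLD remove or remodel the ubiquitin chains on which IKK is assembled, and the ABIN proteins (Tnip1 and Tnip3) bind ubiquitin and A20.

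Because several of these genes are textbook targets of NF-kB itself, the DNA around their start sites is shown for the kB consensus, the degenerate 10-base element bound by Rel dimers. Windows of 300 bases (250 before each start site and 50 from it on) were taken from RefSeq, build GRCm38.p6, and both strands were searched. A window was given for 9 members, all but Nfkbiz, and 8 of these 9 (88.9%) held a match, against 5.14% of 27025 genes and 4.51% of 32851 windows. The member with windows and no match was Nfkbib. Each 30-base stretch below is written 5′ to 3′ on the gene's own strand with the match in capitals, and its position runs from the first to the last base of the match relative to the start site. The matches of Nfkbia, Bcl3 and Cyld, that of Nfkbid at -181 and that of Tnfaip3 at -12 fit the consensus on the opposite strand. Printed letters can therefore differ among members through orientation alone, as between Bcl3 and the Nfkbid match at -226.
Nfkbia, chr12:55492657-55492686, minus strand, -29 to -20: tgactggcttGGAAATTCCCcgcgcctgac
Nfkbie, chr17:45555584-45555613, plus strand, -106 to -97: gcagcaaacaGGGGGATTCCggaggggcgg
Nfkbid, chr7:30422170-30422199, plus strand, -226 to -217: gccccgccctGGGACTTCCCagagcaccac
Nfkbid, chr7:30422215-30422244, plus strand, -181 to -172: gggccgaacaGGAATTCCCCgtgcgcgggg
Bcl3, chr7:19822734-19822763, minus strand, 3 to 12: tcggcggcagGGGAAGTCCCgctgcccggc
Tnfaip3, chr10:19015516-19015545, minus strand, -125 to -116: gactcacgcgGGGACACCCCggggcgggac
Tnfaip3, chr10:19015403-19015432, minus strand, -12 to -3: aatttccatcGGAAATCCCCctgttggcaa
Tnip1, chr11:54962978-54963007, minus strand, -57 to -48: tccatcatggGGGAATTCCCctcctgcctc
Tnip3, chr6:65590334-65590363, plus strand, -54 to -45: gagacatcctGGGAAATCCCagttacatgg
Cyld, chr8:88696863-88696892, plus strand, -155 to -146: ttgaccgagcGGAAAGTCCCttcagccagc
Nfkbid and Tnfaip3 each held 2 separate matches. Tnip1 held 3 overlapping ones, of which the central match is shown. The matches of Nfkbid lay in 1 of its 3 windows and those of Tnfaip3 in 1 of its 2. A match is a likeness of letters and says nothing of whether a factor was bound there in these cells.

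**Figure D1:**
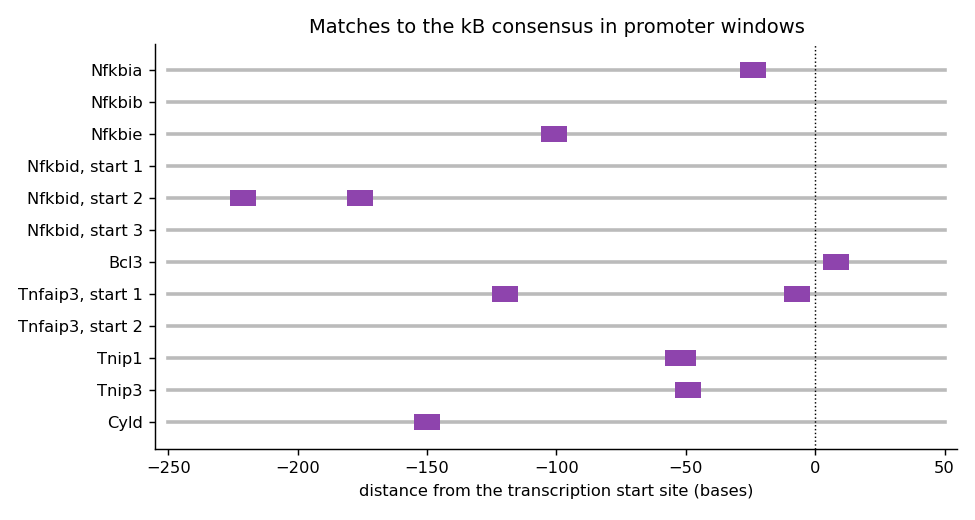
Matches to the kB consensus in the promoter windows of the members, by distance in bases from the RefSeq start site (horizontal axis), with 1 row for each window. Of 12 windows, 8 carry at least 1 match, and Nfkbib carries none.

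With LPS, 7 of the 10 genes rose, 0 fell, and 3 (Nfkbie, Tnip3 and Cyld) did not pass the test. Nfkbiz, the gene of IkB zeta, moved furthest, from a mean of 20.3 to 270 CPM. Bcl3 and Nfkbia followed at 5.20-fold and 4.31-fold, then Nfkbib, Tnfaip3 and Tnip1 at between 3.25-fold and 2.51-fold, and Nfkbid at 1.40-fold. By class, 2 of 3 classical IkB genes rose (median log2 fold change 1.70), 3 of 3 nuclear IkB genes (2.38) and 2 of 4 ubiquitin-editing genes (0.86). Over all 16371 genes tested, 12.7% rose, 10.9% fell and 23.6% were called in either direction, and the median log2 fold change was -0.02. Every LPS library stood above every Vehicle library for 9 of the 10 members, against 20.8% of all genes tested. Genes were called at a Benjamini-Hochberg adjusted p under 0.05 in edgeR's quasi-likelihood test over all genes tested, and log2 fold changes are given with their SE. The classes were described and not tested against each other, since genes are not replicates. The number of members that rose was 6 when Vehicle 1, Vehicle 2, Vehicle 3 or LPS 1 was left out, and Nfkbid was the one lost each time. Over all genes, the number that rose dropped to 1291 without Vehicle 2, and the number that fell was 1150, 1053 and 1153 without Vehicle 1, Vehicle 2 and LPS 2. Without LPS 3 both numbers were larger than with all libraries, at 2450 that rose and 2085 that fell.

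**Figure D2:**
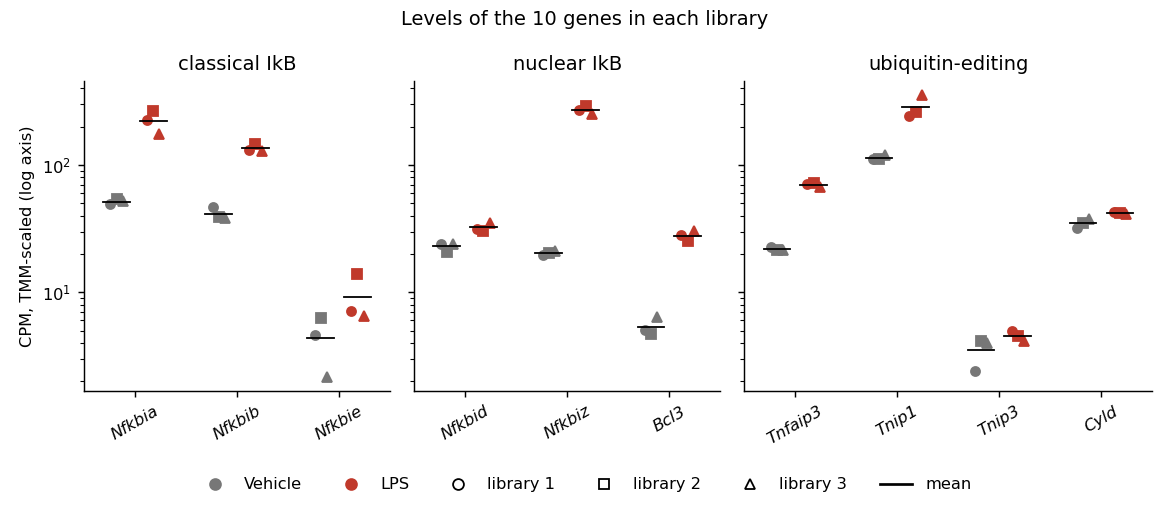
Level of each member in the 6 libraries, in TMM-scaled CPM on a log axis, with 1 point a library and a line at the mean of each group of 3. LPS points lie above all Vehicle points for every member but Tnip3.

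Among the classical IkB genes, Nfkbia encodes the inhibitor that is degraded and remade fastest in the textbook loop. It measured 49.3, 53.6 and 51.7 CPM in Vehicle 1, 2 and 3 and 225, 265 and 176 CPM in LPS 1, 2 and 3. The lowest LPS library was thus well above the highest Vehicle library, and the LPS libraries were further apart than the Vehicle libraries. Its mean went from 51.6 ± 2.15 to 222 ± 44.5 CPM (SD, n = 3 each), and in edgeR's quasi-likelihood test the log2 fold change was 2.11 ± 0.15 (adjusted p = 4.92e-05). Nfkbib, whose product IkB beta is known for slower and more lasting control, measured 47.0, 39.0 and 38.7 CPM with Vehicle and 132, 146 and 128 CPM with LPS. The groups lay far apart, and the 3 LPS libraries were close to each other. Its log2 fold change was 1.70 ± 0.11 (edgeR's quasi-likelihood test, adjusted p = 3.56e-05). Exons of Nfkbib overlap those of Sirt2, a deacetylase gene on the opposite strand, over 42 bp, and the library kit is not stated to keep strand. Sirt2 itself rose, from 62.2 ± 4.06 to 107 ± 12 CPM (SD, n = 3 each), with a log2 fold change of 0.78 ± 0.11 (edgeR's quasi-likelihood test, adjusted p = 0.00150). Reads within the stretch shared with Sirt2 cannot be assigned to either gene. Ccer2, also on the opposite strand, overlaps Nfkbib exons over 314 bp, and that gene had 0 counts in all 6 libraries.

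Nfkbie, the gene of IkB epsilon, was scarce. It measured 4.65, 6.26 and 2.15 CPM with Vehicle and 7.17, 13.9 and 6.55 CPM with LPS. The groups did not overlap, yet Vehicle 2 came within a small margin of LPS 3, and LPS 2 stood well above the other LPS libraries. The log2 fold change of Nfkbie was 1.08 ± 0.42, and it did not pass the test (edgeR's quasi-likelihood test, adjusted p = 0.110). Without LPS 2 the log2 fold change was 0.65. Its point estimate of a 2.12-fold difference was larger than that of Nfkbid, which passed, and its SE was the largest of the 10 members.

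Among the nuclear IkB genes, Nfkbiz encodes IkB zeta, a co-activator needed for a secondary set of LPS-induced genes. It measured 19.5, 20.3 and 21.0 CPM with Vehicle and 269, 288 and 252 CPM with LPS. The libraries of each group lay within a narrow band, and the bands were more than 10-fold apart. The log2 fold change was 3.73 ± 0.10, a 13.3-fold rise (edgeR's quasi-likelihood test, adjusted p = 5.92e-07). In the order of log2 fold changes it ranked 100 of 16371 genes, the highest rank of the 10 members.

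Bcl3 encodes a nuclear IkB that works with the dimers made from Nfkb1 and Nfkb2. It was low with Vehicle, at 5.01, 4.66 and 6.42 CPM, and measured 28.0, 25.2 and 30.3 CPM with LPS. All LPS libraries were well clear of the Vehicle libraries, and the log2 fold change was 2.38 ± 0.17 (edgeR's quasi-likelihood test, adjusted p = 4.91e-05). The annotation places an antisense gene, Gm16175, over 161 bp of its exons, and that gene had 0 counts in all 6 libraries.

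Nfkbid encodes IkBNS, which binds the Nfkb1 product and is known as a selective repressor of late cytokine genes in macrophages. It measured 24.1, 20.8 and 24.1 CPM with Vehicle and 31.5, 30.5 and 35.0 CPM with LPS. The groups did not overlap, but the gap was small beside those of Nfkbiz and Bcl3. Its log2 fold change was 0.49 ± 0.12, or 1.40-fold (edgeR's quasi-likelihood test, adjusted p = 0.0208). The call was lost without Vehicle 1, 2 or 3 or without LPS 1, with edgeR's adjusted p between 0.0517 and 0.0891 and the log2 fold change between 0.42 and 0.53. It was also lost when libraries were scaled by total counts only (log2 fold change 0.40). Over all alternatives its edgeR, DESeq2 or limma adjusted p ran from 0.00297 to 0.0891.

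Of the ubiquitin-editing members, Tnfaip3 encodes A20, the best known brake on this pathway. Tnfaip3 measured 22.7, 21.4 and 21.6 CPM with Vehicle and 70.9, 71.8 and 67.4 CPM with LPS. Both groups were tight and widely separated, with means of 21.9 ± 0.71 and 70.0 ± 2.35 CPM (SD, n = 3 each). Its log2 fold change was 1.68 ± 0.10, or 3.19-fold (edgeR's quasi-likelihood test, adjusted p = 1.87e-05). Tnip1, the gene of the A20 partner ABIN-1, had the highest CPM of the 10 members with Vehicle, at 112, 111 and 119 CPM, and measured 241, 263 and 354 CPM with LPS. Every LPS library was above every Vehicle library, and LPS 3 was well above the others. The log2 fold change of Tnip1 was 1.33 ± 0.14, or 2.51-fold (edgeR's quasi-likelihood test, adjusted p = 0.000444). Without LPS 3 the log2 fold change of Tnip1 was 1.14 ± 0.08.

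Tnip3 and Cyld did not pass the test. Tnip3, the gene of ABIN-3, was the scarcest member, at 2.40, 4.11 and 4.01 CPM with Vehicle and 4.95, 4.49 and 4.10 CPM with LPS. Its groups overlapped, as Vehicle 2 was just above LPS 3, and its log2 fold change was 0.39 ± 0.26 (edgeR's quasi-likelihood test, adjusted p = 0.323). Without Vehicle 1, the lowest library of Tnip3, the log2 fold change was 0.15. Cyld, the gene of a deubiquitinase that strips non-degradative chains from IKK adaptors, measured 31.8, 34.7 and 38.0 CPM with Vehicle and 43.0, 41.8 and 40.9 CPM with LPS. Its groups did not overlap but were close, and the log2 fold change was 0.27 ± 0.11 (edgeR's quasi-likelihood test, adjusted p = 0.113). A p above the threshold does not show that either gene stayed the same.

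**Figure D3:**
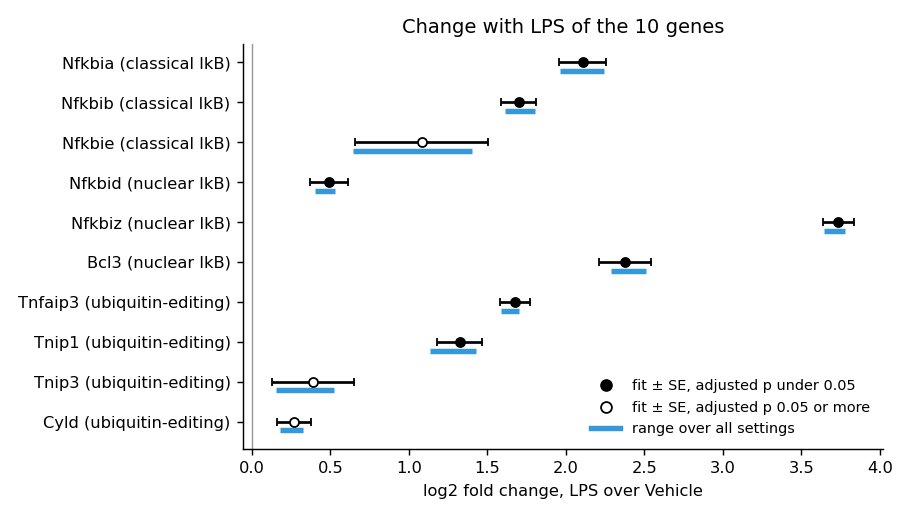
Log2 fold change of each member, LPS against Vehicle, by class, with bars of 1 SE from edgeR's quasi-likelihood fit. Nfkbiz stands highest at 3.73, and Nfkbie has the widest bar at 0.42.

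With a single member lacking a match, and no window for Nfkbiz, the matches cannot be related to the calls. Nfkbib, the member without a match, rose 3.25-fold. The match of Tnip3 read the consensus on both strands, as did the central match of Tnip1. The absence of a match says only that those letters were not in this window.

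The 3 LPS libraries differed from each other in a way that the members shared in part. Nfkbia, Nfkbib, Nfkbie, Nfkbiz and Tnfaip3 were each highest in LPS 2 and lowest in LPS 3. Tnip1, Nfkbid and Bcl3 were highest in LPS 3, and Tnip3 and Cyld were highest in LPS 1. For Nfkbia the highest LPS library was 1.5 times the lowest, against 1.09 times among the Vehicle libraries. Tnip1 was alike (1.47 against 1.07), and Nfkbiz (1.14 against 1.08) and Tnfaip3 (1.07 against 1.06) differed little. For Nfkbib, Nfkbie, Nfkbid, Bcl3, Tnip3 and Cyld this ratio was smaller among the LPS libraries than among the Vehicle libraries. Nothing in the labels sets the LPS libraries apart, and their order is given as a description.

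Levels of different genes were compared per length, as CPM per kilobase of the longest annotated transcript. On this scale and with Vehicle, Tnip1 was the most abundant member at 38.4 ± 1.53 CPM per kilobase (SD, n = 3), followed by Nfkbia at 32.7 ± 1.36, Nfkbib at 20.2 ± 2.29 and Nfkbid at 11.3 ± 0.92. Below them, in order, came Nfkbiz, Cyld, Tnfaip3, Bcl3, Nfkbie and Tnip3, from 4.93 ± 0.18 down to 0.76 ± 0.21 CPM per kilobase. Libraries overlapped between the neighbours Tnfaip3 and Bcl3 and between Nfkbie and Tnip3, so these are not ordered beyond their spread. With LPS, Nfkbia stood at 141 ± 28.2 and Tnip1 at 96.2 ± 20.2 CPM per kilobase, and their libraries overlapped. Nfkbib and Nfkbiz came next, both with a mean of 65.6 CPM per kilobase, and also overlapped. Nfkbid at 15.9 ± 1.15 and Bcl3 at 15 ± 1.40 overlapped as well, ahead of Tnfaip3 at 11.3 ± 0.38, Cyld at 5.22 ± 0.14, Nfkbie at 3.07 ± 1.37 and Tnip3 at 0.98 ± 0.09. Nfkbiz stood below Nfkbid with Vehicle and above it with LPS, and Bcl3 stood below Tnfaip3 and Cyld by its mean with Vehicle and above both with LPS. In CPM not divided by length, Bcl3 stayed lower with LPS, at a mean of 27.8 CPM against 70.0 for Tnfaip3 and 41.9 for Cyld. On the per-length scale the A20 gene itself was thus among the less abundant members in both groups. That place depends on the length taken, and which transcripts were expressed was not tested. With LPS and not divided by length, Tnfaip3 also stood above Nfkbid, at a mean of 70.0 against 32.3 CPM.

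The make-up of the nuclear class differed most between the groups. Nfkbid held 61.3%, 57.8% and 57.9% of the class's summed per-length level with Vehicle and 16.1%, 15.2% and 18.1% with LPS. Nfkbiz held 24.6%, 27.9% and 25% with Vehicle and 68.1%, 71.0% and 64.6% with LPS. Per length, the leading nuclear IkB transcript was therefore Nfkbid in each Vehicle library and Nfkbiz in each LPS library. In CPM not divided by length, Nfkbid led Nfkbiz by little with Vehicle, at 24.1, 20.8 and 24.1 against 19.5, 20.3 and 21.0 CPM. The share of Nfkbid differed by -42.6 percentage points (LPS minus Vehicle) and that of Nfkbiz by 42.1 points, each with an exact two-sided permutation p = 0.1, which is the smallest that 3 against 3 allows, so this test cannot reach 0.05. Bcl3 held 15.1% ± 1.66 with Vehicle and 15.6% ± 1.76 with LPS (SD, n = 3 each). Its difference of 0.50 points had an exact permutation p = 0.8, and turned to -2.52 points when CPM were not divided by length.

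Shares within the other classes differed less. Nfkbia held 60.3% ± 3.52 of the classical class with Vehicle and 66.9% ± 3.03 with LPS (exact permutation p = 0.1, n = 3 each). Nfkbib went from 37.1% ± 3.45 to 31.7% ± 3.27 (exact permutation p = 0.2, n = 3 each), and Nfkbie from 2.65% ± 1.21 to 1.43% ± 0.42 (exact permutation p = 0.2, n = 3 each). In the ubiquitin-editing class Tnip1 held 81.6% ± 0.48 with Vehicle and 84.3% ± 2.97 with LPS (exact permutation p = 0.2, n = 3 each). The share of Tnfaip3 was 7.52% ± 0.47 and 10.2% ± 1.90 (exact permutation p = 0.2, n = 3 each), and that of Cyld 9.23% ± 0.48 and 4.69% ± 0.86 (exact permutation p = 0.1, n = 3 each). Shares in a class sum to the whole, so a rise in 1 gene lowers the shares of the others.

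**Figure D4:**
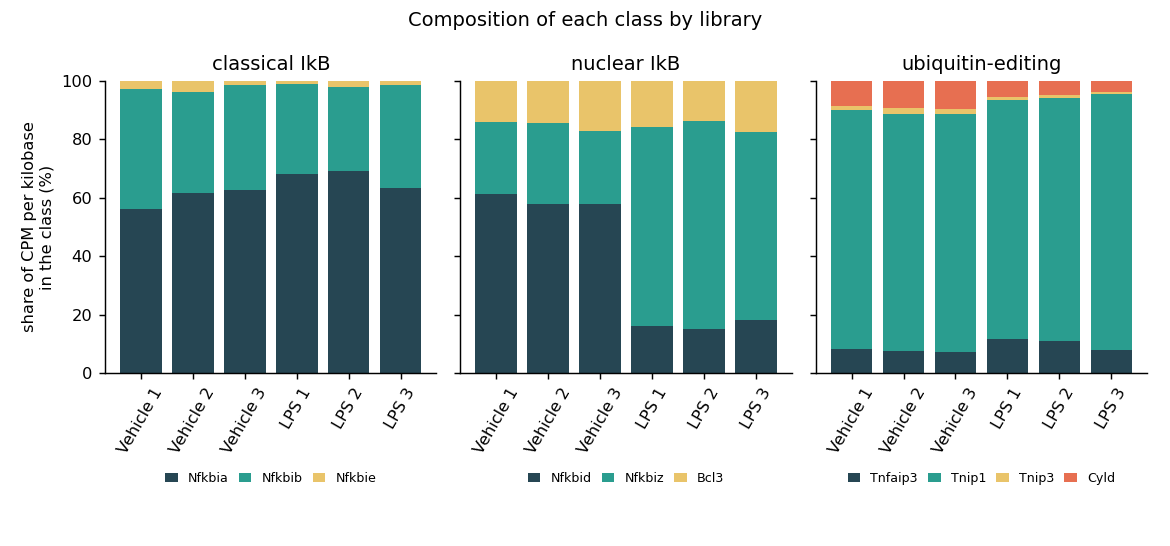
Share of each member in the summed per-length level of its class, in percent, for each of the 6 libraries. In the nuclear class Nfkbid holds the largest share in all Vehicle libraries and Nfkbiz in all LPS libraries.

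The genes around the members were described by lists for the steps of the pathway. Of the 5 Rel subunits, the proteins that IkB binds, 4 rose and 0 fell (median log2 fold change 1.02). Of all genes tested, 12.7% rose and 10.9% fell. Nfkb2, whose product is both a subunit precursor and an IkB-like inhibitor, measured 61.3, 54.3 and 57.7 CPM with Vehicle and 215, 256 and 191 CPM with LPS. All LPS libraries of Nfkb2 were well above its Vehicle libraries, and the log2 fold change was 1.93 ± 0.12. Relb rose by 1.36 ± 0.17, Nfkb1 by 1.02 ± 0.09 and Rel by 1.02 ± 0.10 on the log2 scale. Rela, the main activating subunit, overlapped between groups, at 78.2, 69.0 and 87.6 CPM with Vehicle and 85.0, 98.4 and 117 CPM with LPS, and did not pass the test (log2 fold change 0.36 ± 0.14, edgeR's quasi-likelihood test, adjusted p = 0.103).

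The next lists cover the machinery that destroys IkB and edits ubiquitin. Over all genes tested 12.7% rose, 10.9% fell and 23.6% were called either way. The IKK, turnover, A20 and CYLD partner, kB-Ras and receptor-proximal lists held 6 to 12 genes with 2 to 4 calls each, too few to set apart from that background, so their counts are not results about the lists. In the list of 10 IKK genes 2 rose and 1 fell (median 0.00): Ikbke, an IKK-related kinase, rose by 0.89 ± 0.09, Ikbkb, the catalytic subunit that phosphorylates IkB alpha, rose by 0.34 ± 0.09, and Map3k7, which encodes the upstream kinase TAK1, fell by 0.34 ± 0.11 on the log2 scale. In the list of 11 genes of IkB turnover 2 rose and 2 fell (median -0.01). Btrc and Fbxw11, the receptors of the ubiquitin ligase that recognises phosphorylated IkB, rose by 0.84 ± 0.14 and 0.46 ± 0.11. Skp1a and Cul1, the adaptor and scaffold of the same ligase, fell by 0.54 ± 0.12 and 0.33 ± 0.09. Only Ikbke and Btrc of these 7 genes kept their calls under each alternative. Without single libraries edgeR's adjusted p reached 0.0984 for Ikbkb and 0.116 for Cul1 (any library but LPS 3), and 0.166 for Map3k7 (Vehicle 1, Vehicle 2, LPS 1 or LPS 2). It reached 0.0747 for Fbxw11 (Vehicle 2, Vehicle 3, LPS 1 or LPS 2) and 0.0673 for Skp1a (Vehicle 1 or Vehicle 2).

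Among 12 partners of A20 and CYLD and related deubiquitinases, 2 rose and 1 fell (median 0.08). Spata2, which bridges CYLD to the linear ubiquitin ligase, measured 36.2, 35.0 and 35.2 CPM with Vehicle and 56.1, 58.5 and 64.1 CPM with LPS. Its groups were clearly apart (log2 fold change 0.75 ± 0.10, edgeR's quasi-likelihood test, adjusted p = 0.00119). Rnf11, an A20 partner, rose by 0.46 ± 0.13, and Ube2n, the conjugating enzyme for non-degradative chains that A20 is known to target, fell by 0.70 ± 0.15 on the log2 scale. Of the 3 subunits of the linear ubiquitin ligase, Rnf31, its catalytic subunit, and Sharpin rose, by 0.77 ± 0.16 and 0.41 ± 0.10. Over all genes tested 12.7% rose, and a list of 3 genes is too small to set apart from that background. Its count is therefore not a result about the list. Without single libraries edgeR's adjusted p reached 0.126 for Rnf11 and 0.0948 for Sharpin (any library but LPS 3).

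Of 6 genes of the kB-Ras and IkB-like list 2 rose (median 0.36): Commd1, known to promote the removal of Rela from DNA, by 0.63 ± 0.17 and Akirin2, a nuclear co-factor of IkB zeta, by 0.49 ± 0.12. Both calls were fragile, with edgeR's adjusted p up to 0.115 for Commd1 without Vehicle 2, Vehicle 3 or LPS 1 and up to 0.0860 for Akirin2 without any library but LPS 3. Of 8 receptor-proximal targets of ubiquitin editing 2 rose (median 0.27): Ripk2, a kinase of the NOD pathway, by 1.16 ± 0.14 and Birc3, a ubiquitin ligase, by 1.10 ± 0.17.

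Of 5 genes known to depend on IkB zeta in macrophages, 5 rose, against 12.7% of all genes tested. The list was chosen with earlier results of these data known, and whether IkB zeta played a part here was not tested. The median log2 fold change of the 5 genes was 7.97 when a gene at 0 in Vehicle is taken at its bound. Lcn2, a siderophore-binding protein, measured 1.77, 3.0 and 3.74 CPM with Vehicle and 1058, 1060 and 960 CPM with LPS. Csf3, a granulocyte growth factor, measured 0.860, 2.57 and 2.47 CPM with Vehicle and 870, 1264 and 681 CPM with LPS. In both genes each LPS library exceeded the Vehicle libraries more than 100-fold. Il12b, a cytokine subunit, had 0 counts in all Vehicle libraries and 4.79, 7.94 and 3.80 CPM with LPS, at least 25.3-fold higher when Vehicle is set at a floor of 3 spacings per library. Il6 also rose, by 7.97 ± 0.25 on the log2 scale. Csf2, another growth factor, rose from values under that floor in each Vehicle library to 6.79, 9.34 and 10.4 CPM with LPS.

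**Figure D5:**
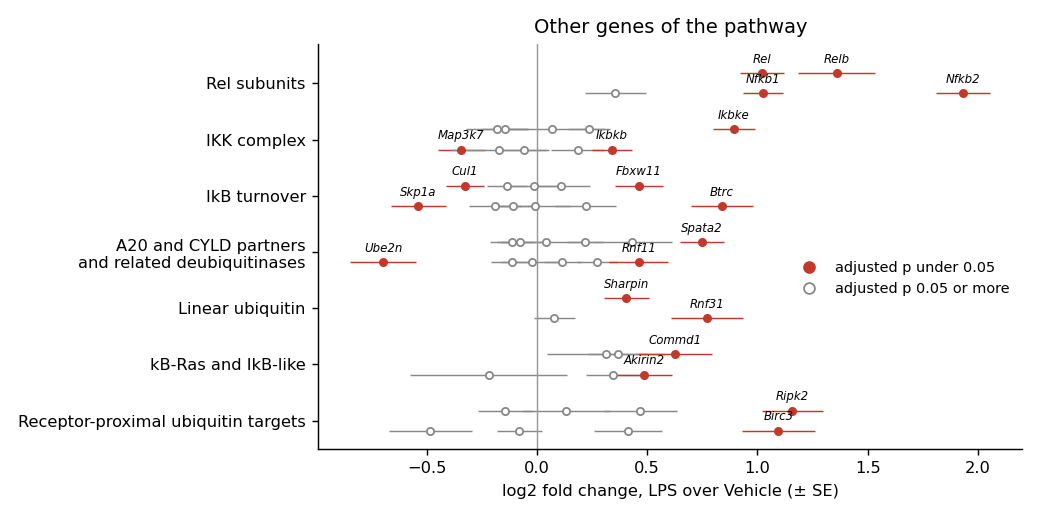
Log2 fold change, LPS against Vehicle, of the genes in the pathway lists, with called and uncalled genes marked apart. The genes known to depend on IkB zeta are not shown. Most genes of the IKK, turnover and deubiquitinase lists lie near 0, while 4 of 5 Rel subunits rose.

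For 1 gene of each class, the genes with the most similar values over the 6 libraries were sought among 9818 genes with a mean of at least 5 CPM. The measure was the root mean square difference in log2 CPM after subtracting each gene's Vehicle mean. Nearest to Nfkbia were Plk2 (0.077), Mxd1 (0.083) and Ddit3 (0.106). Like Nfkbia, each was highest in LPS 2 and lowest in LPS 3, an order that the measure itself favours because it uses the same libraries. Nearest to Nfkbiz were the chemokine genes Ccl5 (0.083) and Ccl7 (0.164) and then Lix1 (0.194). Nearest to Tnfaip3 were Ptgir (0.051), Sp140 (0.075) and Nfkbib (0.078), itself one of the members. These likenesses rest on 6 libraries and mostly on the step between the groups.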

How the data were processed

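The deposited table, made by the authors, gives estimated counts (expected counts) for each gene and library; all were whole numbers, so none was changed by rounding. The tools named, per the submitters' processing notes, are HISAT2, StringTie 1.3.1, Bowtie2 2.2.8 and DESeq2, with no role stated. The genome build is not given in the sources used here. Symbols came from a reference list of gene names, filled from the GENCODE M21 annotation where an identifier was missing. Transcript lengths came from GENCODE M21, which held 55141 of 55401 identifiers, and 0 sample columns were left unmapped. Genes were filtered with filterByExpr (minimum count 10, total 15), scaled by TMM and tested two-sided with edgeR 4.0.16 (R 4.3.3) by the robust quasi-likelihood test. Likeness used log2 CPM with a prior count of 2. Limma 3.58.1 and DESeq2 1.42.0 served as alternatives, and the procedure was tested on simulated data. Figures used matplotlib 3.10.9.

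The members and lists were chosen with earlier results of these data known. All members are named; of each list, up to 3 called genes with the largest change, at least 1 each way. Rel, Cul1, Il6 and Csf2 were added after their values were seen. Floors of 3 spacings cover counting error only, since without molecular identifiers a read need not be its own molecule.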

Additional observations from a re-analysis of the deposited data

How the results depend on the processing

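Results were recomputed under 16 alternatives for scaling, filter, tool, replicate block, spacing and left-out libraries, and of the results for single genes of the lists and like genes 499 values kept their side of the threshold and 45 lost it, with 0 reversed. Of the values for all genes, members, classes, lists and shares, 634 kept direction and call or stayed within their limits, 51 moved, 5 lost and 1 gained a call, and 3 reversed, all of them the Bcl3 share. With total counts only, 42.2% of calls were higher with LPS against 53.9% with TMM, the median of all genes was -0.10 against -0.02, 1 gene each rose in the IKK, A20 and CYLD partner and linear ubiquitin lists, the ubiquitin-editing median was 0.77 and Nfkbid was lost (0.40, edgeR's adjusted p = 0.050, just above the threshold). In the IKK list 0 genes fell with no filter, with the legacy edgeR test or with the replicate block. Once each gene's group mean was subtracted, same-numbered libraries correlated at 0.045 to 0.073, so the numbers were not taken as pairing. Without that step, Vehicle and LPS libraries correlated at 0.929 to 0.944. The replicate block called 3817 genes, 1 of the turnover list fell, and Nfkbie passed (1.07, edgeR's adjusted p = 0.0183, over all alternatives 0.0183 to 0.295). After the subtraction each library correlated best with its own number, which is a hint from the data only.

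Leaving out each library in turn gave 1291 to 2450 genes higher and 1053 to 2085 lower. The numbers higher ran from 6 to 7 for all members, 2 to 3 for nuclear IkB, 1 to 3 for IKK, 1 to 2 for turnover, 1 to 3 for A20 and CYLD partners, 1 to 2 for linear ubiquitin and 0 to 3 for kB-Ras. The numbers lower ran from 0 to 2 for IKK and turnover and 0 to 1 for kB-Ras and receptor-proximal genes. Class medians ran from 1.64 to 1.80 (classical), 2.29 to 2.51 (nuclear) and 0.76 to 0.92 (ubiquitin-editing), and Nfkbid from 0.42 to 0.53. The Bcl3 share was -2.52 points without length scaling, and from -0.34 (without LPS 3) to 1.46 with a library left out (-0.023 without Vehicle 1). The cause of these shifts was not tested. Shares with RefSeq transcript lengths were not run, as the table used gives gene spans only.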

Other observations

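The summed per-length level of the classical IkB genes was also set against that of Rela and Rel, the 2 subunits with an activation domain that IkB alpha and beta are best known to hold. The ratio was 1.63, 1.75 and 1.38 in the Vehicle libraries and 5.0, 5.06 and 3.21 in the LPS libraries. All LPS values lay above all Vehicle values, with means of 1.59 ± 0.19 and 4.42 ± 1.05 (SD, n = 3 each; exact two-sided permutation p = 0.1, the smallest possible). LPS 3 had the lowest ratio of its group, as it had the lowest Nfkbia. Against all 5 Rel subunits the ratio was 0.68 ± 0.05 with Vehicle and 1.23 ± 0.13 with LPS (exact permutation p = 0.1, n = 3 each).

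The summed per-length level of each class was also computed, and differences between classes were not tested. Classical IkB transcripts went from 54.3 ± 1.79 to 209 ± 33.6 CPM per kilobase (3.86-fold), nuclear IkB transcripts from 19.1 ± 1.36 to 96.5 ± 1.99 (5.05-fold) and ubiquitin-editing transcripts from 47.0 ± 1.93 to 114 ± 19.6 (2.42-fold; SD, n = 3 each). The nuclear sum had the smallest spread among LPS libraries. Nfkbid and Bcl3 were highest in LPS 3 and lowest in LPS 2, and Nfkbiz was the reverse. The ratio of ubiquitin-editing to classical transcripts was 0.87 ± 0.06 with Vehicle and 0.56 ± 0.18 with LPS, and LPS 3, at 0.77, was closest to the Vehicle libraries (exact permutation p = 0.1, n = 3 each). These are transcript levels, and protein was not measured.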
